A study of Mus musculus with 2 samples.

Results

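The genes described are 10 genes of peroxide and superoxide removal and of iron storage, taken by symbol from a given list out of the 43346 gene rows of each table. They are the ferritin chains Fth1 and Ftl1, the glutathione peroxidases Gpx1 and Gpx4, the peroxiredoxins Prdx1, Prdx2, Prdx3 and Prdx5, the thioredoxin Txn1 and the mitochondrial superoxide dismutase Sod2. All 10 were found in both libraries, and all 10 passed the minimum of a mean CPM of 10, CPM being counts scaled to library size. RNA was sequenced from pools of 50 pyramidal neurons, cut by laser from layer 5 of the cerebral cortex of wild-type male mice aged 8 months. There was 1 group, with no treatment or altered allele and no other cell type, and it held 2 libraries, replicate 1 and replicate 2. One label gives the strain as B6NCrl, whereas C57Bl5 and C57Bl6 stand in other fields. The labels number the libraries as biological replicates 1 and 2, yet both name the same donor, so the spread between them may be technical. The only comparisons possible are between genes within a library and between replicate 1 and replicate 2.

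Respiring cells form superoxide, which superoxide dismutases turn into hydrogen peroxide. Catalase, glutathione peroxidases and peroxiredoxins break peroxide down, the second with electrons from glutathione and the typical peroxiredoxins with electrons from thioredoxin. Free ferrous iron turns peroxide into hydroxyl radicals, and ferritin, a hollow shell of heavy and light chains, stores iron in a harmless form. Neurons depend on this system because they respire heavily and are long-lived.

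Each library gave about the same yield. Estimated reads came to 24171434 in replicate 1 and 27946180 in replicate 2, of which 4.28% and 5.32% were spike-in RNA. Levels are given in TPM, transcript abundance corrected for length and depth, a scale on which genes can be compared, as the mean ± SD of the 2 libraries. No molecular identifiers were used, so counting intervals cover counting error only. The 7 neuronal markers were all at 31.9 TPM or more in both libraries, and their TPM summed to 7640 in replicate 1 and 9584 in replicate 2, with Slc17a7, the vesicular glutamate transporter of excitatory neurons, at 31.9 and 49.3 TPM. Most of that sum was Snap25, at 5388 and 6767 TPM. Markers of other cells were present too. The 6 interneuron markers summed to 3871 TPM in replicate 1 and 1491 TPM in replicate 2. Of these, Gad1, Sst, Pvalb and Npy were above Slc17a7 in both libraries, with Gad1 at 143 and 94.8 TPM. Vip was above it in replicate 1 only, and Gad2, at 31.7 and 11.05 TPM, in neither. The 6 oligodendrocyte markers summed to 487 and 621 TPM, the 6 astrocyte markers to 351 and 390 TPM, and the 5 endothelial markers to 40.8 and 51.2 TPM. The 8 microglia markers summed to 131 TPM in replicate 1 against 50.6 in replicate 2, and the 6 erythroid markers to 7.59 and 384 TPM, of which the defining marker Slc4a1 had no reads. In such pools, fewer cells of a type and less RNA per cell cannot be told apart. Levels given below are those of the pools and cannot be assigned to pyramidal neurons alone.

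The ferritin chains were the most abundant of the 10 genes as a family, and the heavy chain exceeded the light chain about 5-fold. Fth1 (chr19:9980598-9985098, plus strand, GRCm38), the heavy chain with the ferroxidase site that oxidises iron for storage, had 3786 TPM in replicate 1 and 4001 TPM in replicate 2 (3893 ± 152, SD, n = 2). It ranked 6th of 21461 nuclear protein-coding genes in either library, from 58076 and 68714 estimated reads. Ftl1 (chr7:45457944-45459884, minus strand), the light chain that aids formation of the iron core, had 779 TPM in replicate 1 and 748 TPM in replicate 2 (763 ± 22.2). The heavy chain was thus 4.86 times the light chain in replicate 1 and 5.35 times in replicate 2, a ratio of 5.11 ± 0.348 (SD, n = 2). Summed, the ferritins reached 4565 and 4749 TPM, more than all the other 8 genes together, and took 0.309% and 0.314% of gene reads. The mitochondrial ferritin gene Ftmt had no reads in either library.

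The stem-loop that ties ferritin translation to iron is shown here because the tables measure only the mRNA on which it acts. In iron-poor cells, iron regulatory proteins bind this element near the cap and block translation, so the mRNA level alone does not give the protein level. A pattern was searched on the sense strand of untranslated regions (UTRs), made of C, 5 bases, the loop CAGTGN with N other than G, and 5 bases complementary to the first 5. It matched once in the 5′ UTR of each ferritin gene. Both sequences are from GENCODE M21 on GRCm38, written 5′ to 3′ with the loop in capitals, at chr19:9982733-9982759 on the plus strand for Fth1 and chr7:45459780-45459806 on the minus strand for Ftl1.
Fth1: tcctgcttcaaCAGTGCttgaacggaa
Ftl1: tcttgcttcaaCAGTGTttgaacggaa
Over these 27 bases the genes differed at 2 positions, C3T and C17T, counted from 1 at the 5′ end with the Fth1 base first. No other of the 10 genes held the pattern in a UTR. It was present in the 5′ UTR of 7 of 20899 coding genes (0.0335%) and in the 3′ UTR of 15 of 21028 (0.0713%). Among 79 other genes of redox and iron handling, Slc40a1, the iron exporter ferroportin, held 1 match in its 5′ UTR and Tfrc, the transferrin receptor, held 3 in its 3′ UTR. Slc40a1 had 3.14 TPM in replicate 1 against 1.76 TPM in replicate 2, and Tfrc had 25.3 against 33.1 TPM. In CPM, Tfrc was nearly equal in the libraries, at 89.45 and 89.88, and its estimated effective length was 4133 and 3177 bases. A match describes letters and does not show that the element was in use in these cells.

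Of the glutathione peroxidases, Gpx4 was about 3 times as abundant as Gpx1. Gpx4 (chr10:80047166-80056439, plus strand) reduces lipid hydroperoxides within membranes and guards cells against ferroptosis, an iron-dependent form of death. It had 857 TPM in replicate 1 and 991 TPM in replicate 2 (924 ± 94.5), from 12355 and 16047 reads, second by TPM among the 10 genes in either library. Gpx1 (chr9:108338903-108340343, plus strand), the soluble enzyme that removes hydrogen peroxide, had 279 TPM in replicate 1 and 337 TPM in replicate 2 (308 ± 40.9), from 4298 and 5877 reads. Within a library Gpx4 was 3.07 times Gpx1 in replicate 1 and 2.94 times in replicate 2 (3.01 ± 0.0923). In TPM both genes were lower in replicate 1, a direction that turned with spike-in scaling, and their ratio moved less than either level did.

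Both enzymes carry selenocysteine at the active site, coded by a TGA that would otherwise end translation. The codon is shown because transcripts of Gpx1 differ in whether their annotated coding sequence holds it. The 30 bases around each annotated codon follow, from GENCODE M21 on GRCm38, 5′ to 3′ on the plus strand with the selenocysteine codon in capitals, at chr9:108339439-108339468 and chr10:80054725-80054754.
Gpx1: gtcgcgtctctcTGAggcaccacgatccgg
Gpx4: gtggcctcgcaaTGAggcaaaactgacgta
It is codon 47 of the coding sequence of transcript Gpx1-201, and codon 73 of Gpx4-202 or 33 of Gpx4-207. In replicate 1, for which the transcript table was used, transcripts with the annotated codon made up 99.7% of the Gpx4 TPM. These were Gpx4-207 with 61.7% and Gpx4-202 with 37.9%, and the first begins 977 bases downstream of the second in the genome. Gpx4-201, another coding transcript with an alternative first exon, had no reads. For Gpx1, transcripts with the annotated codon held 50.9% of the TPM, all of it Gpx1-201. Gpx1-204 held 47.0% and Gpx1-202 held 1.68%, and the annotated coding sequence of both begins after the codon. Both transcripts start upstream of it, and whether its bases lie in their 5′ UTR was not examined. The estimated posterior SD of the read count was 2.61% for Gpx1-201, 4.33% for Gpx1-204 and 78.2% for Gpx1-202, so the last value carries little weight. Replicate 2 was not examined at this level, and the shares have no replicate check. The coding sequences of Gpx1 and Gpx4 were identical at 49.4% of aligned positions.

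**Figure D1:**
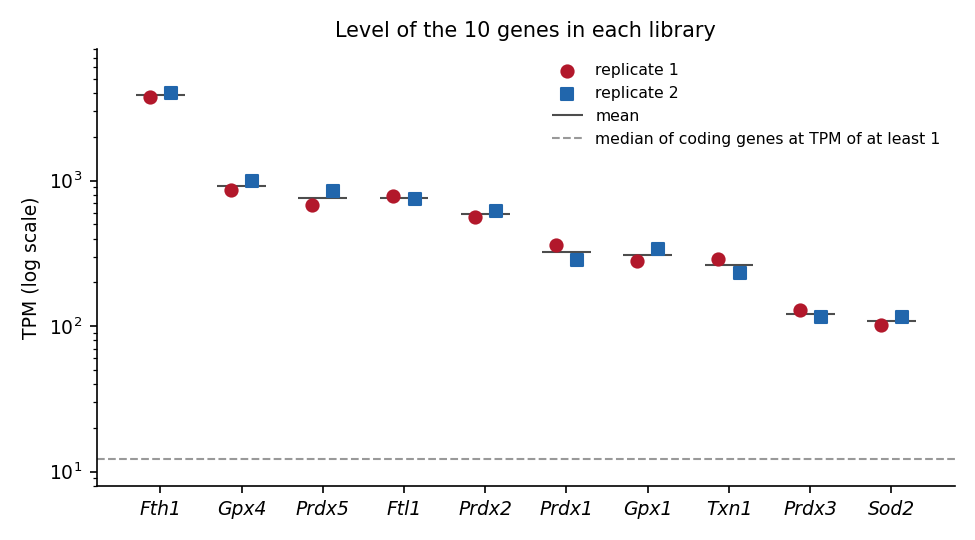
Level of each of the 10 genes in TPM (vertical log axis), with replicate 1 as circles, replicate 2 as squares and their mean as a bar. The dashed line is the mean over the libraries of the median of nuclear coding genes at a TPM of at least 1. Fth1 stands alone at 3786 and 4001 TPM, and Prdx3 and Sod2 are lowest at 102 to 128 TPM.

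In TPM the 4 peroxiredoxins spanned a range of about 6-fold, with the Prdx5 mRNA highest and Prdx3 lowest. TPM divides by effective length, which for genes with several transcripts depends on how reads were assigned among them. In replicate 1 it was 747 bases for Prdx5, 982 for Prdx1 and 1379 for Prdx3. Their union exon lengths were 2139, 3043 and 1478 bases. Estimated reads in replicates 1 and 2 were 10143 and 14117 for Prdx5, 7103 and 6561 for Prdx1, and 3536 and 3561 for Prdx3. Divided by union exon length, the counts of the 4 genes put Prdx1 rather than Prdx3 lowest in both libraries. Prdx5 stayed highest, and the range was narrower. Prdx5 (chr19:6906697-6910106, minus strand), an atypical peroxiredoxin found in mitochondria, peroxisomes and cytosol, had 679 TPM in replicate 1 and 849 TPM in replicate 2 (764 ± 121). Prdx2 (chr8:84969587-84974834, plus strand), a cytosolic enzyme that is abundant in neurons, had 565 TPM in replicate 1 and 619 TPM in replicate 2 (592 ± 38.1). In TPM both were lower in replicate 1, a direction that turned with spike-in scaling. Prdx1 (chr4:116685544-116700822, plus strand), the other typical cytosolic form, had 362 TPM in replicate 1 and 287 TPM in replicate 2 (324 ± 52.9). Prdx3 (chr19:60864051-60874556, minus strand), which is confined to the mitochondrial matrix, had 128 TPM in replicate 1 and 115 TPM in replicate 2 (122 ± 9.11). Prdx1 and Prdx3 were higher in replicate 1 under each scaling, and the TPM values of the 4 genes did not overlap with one another across the libraries.

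TPM ratios between peroxiredoxins shifted with the library. Prdx2 was 1.56 times Prdx1 in replicate 1 and 2.16 times in replicate 2 (1.86 ± 0.421, SD, n = 2). Prdx5 was 5.30 times Prdx3 in replicate 1 and 7.37 times in replicate 2 (6.33 ± 1.46). Of the 6 pairs among these 4 genes, Prdx1 and Prdx2 had the highest share of identical positions in their aligned coding sequences, 69.7%, and the other 5 pairs had 47.2% to 52.5%.

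Txn1 (chr4:57943373-57956411, minus strand), the cytosolic thioredoxin that recharges peroxiredoxins, had 289 TPM in replicate 1 and 233 TPM in replicate 2 (261 ± 39.0), from 5495 and 4975 reads. It exceeded its mitochondrial counterpart Txn2, at 146 and 193 TPM, by 1.98 times in replicate 1 and 1.21 times in replicate 2. Txn1 was higher and Txn2 lower in replicate 1. Sod2 (chr17:13006846-13040063, plus strand), the manganese enzyme of the mitochondrial matrix, had 102 TPM in replicate 1 and 116 TPM in replicate 2 (109 ± 9.76), from 7590 and 9648 reads. The copper and zinc enzyme of the cytosol, Sod1, had 529 and 645 TPM and was 5.19 and 5.58 times Sod2 (5.38 ± 0.274). Sod2 had more reads than Gpx1 but a lower TPM, since TPM divides by length and Sod2-201 has 3824 bases against 1072 for Gpx1-201.

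Ordered by mean TPM, the genes ran Fth1, Gpx4, Prdx5, Ftl1, Prdx2, Prdx1, Gpx1, Txn1, Prdx3 and Sod2. This order holds for TPM and changes with the length used. Ftl1 had 13434 and 14422 reads over a union exon length of 968 bases, and Gpx4 had 12355 and 16047 over 1724. Per base of that length, Ftl1 was above Gpx4 in both libraries. Of the 9 neighbouring pairs, 5 kept their order in both libraries with a mean log2 difference above its SD. These were Fth1 over Gpx4, 4.42-fold in replicate 1 and 4.04-fold in replicate 2, then Gpx4 over Prdx5, Ftl1 over Prdx2, Prdx2 over Prdx1, and Txn1 over Prdx3. The other 4 pairs did not differ beyond their spread, and their order turned round between the libraries. They were Prdx5 and Ftl1, Prdx1 and Gpx1, Gpx1 and Txn1, and Prdx3 and Sod2. With 2 libraries, a pair whose order turns always has a mean difference below its SD. The SD is therefore not a separate check on the order.

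All 10 genes were abundant for nuclear coding genes. Their median was 463 TPM in replicate 1 against 478 in replicate 2 (470.4 ± 10.2), beside a median of 11.9 TPM over the 11961 nuclear coding genes that reached a TPM of 1 in replicate 1 and 12.3 TPM over 11678 in replicate 2. Fth1, Gpx4, Prdx5, Ftl1 and Prdx2 stood within rank 215, the top 1%, in each library. The lowest were Sod2 in replicate 1, at rank 1242, and Prdx3 in replicate 2, at rank 1118. Together the genes held 7825 TPM in replicate 1 and 8295 TPM in replicate 2, from 0.573% and 0.593% of gene reads. The size of the median depends on the scale: rescaling FPKM over nuclear coding genes alone put it at 708.

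Between the libraries none of the 10 genes differed by 2-fold or more, on the scale of log2(CPM + 1) with TMM factors from edgeR. At a mean CPM of at least 10, 4.47% of 9189 genes did so, and at a mean CPM of at least 100, which each of the 10 genes exceeded, 1.94% of 2062 genes did. With so low a background, nothing particular to the genes is read from a count of 0 of 10. The largest differences were for Prdx5, with a log2 ratio of replicate 1 to replicate 2 of -0.31, and Txn1, with 0.31. As folds, Prdx5 was 0.806 times replicate 2 (95% exact interval 0.785 to 0.827) and Txn1 1.24 times (1.19 to 1.29). Prdx1 was 1.21 times replicate 2 (1.17 to 1.26). These intervals lie away from 1 but hold counting error only, and the median absolute log2 ratio over the 2062 abundant genes was 0.19. Ftl1 and Fth1 moved least, with log2 ratios of 0.06 and -0.08.

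**Figure D2:**
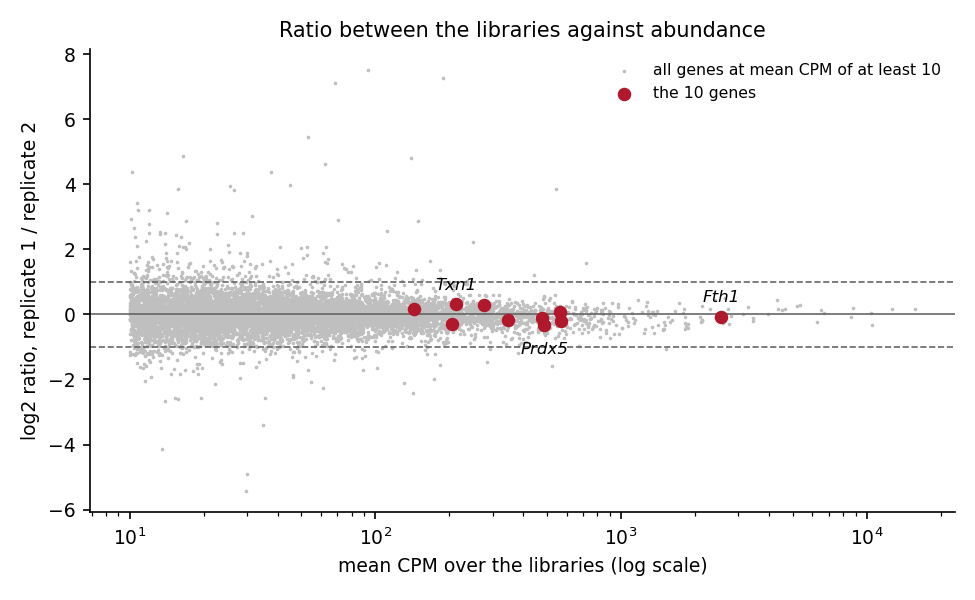
Log2 ratio of replicate 1 to replicate 2 (vertical axis) against mean CPM (horizontal log axis) for 9189 genes in grey and the 10 genes in red. Dashed lines mark 2-fold. All 10 genes lie between the lines, from -0.31 for Prdx5 to 0.31 for Txn1.

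The direction of 6 genes depended on the scaling. With TMM, DESeq2 size factors or deposited TPM, 4 genes (Prdx1, Prdx3, Txn1 and Ftl1) were higher in replicate 1 and 6 were lower, whereas scaling to spike-in totals put all 10 higher in replicate 1, turning Prdx2, Prdx5, Gpx1, Gpx4, Sod2 and Fth1. Spike-in scaling moved the median log2 ratio of all 9189 genes to 0.32, against -0.02 with TMM. Relative to the median of each scaling, 4 genes were above and 6 below under all 4 scalings. TMM, DESeq2 size factors and spike-in totals each scale a whole library by a common factor, which moves genes and median together. The split could therefore hardly differ among them, and only deposited TPM could have changed it. Marker levels moved beside these ratios. At a mean CPM of at least 10, 4 of 5 microglia markers and 4 of 6 interneuron markers were at least 2-fold higher in replicate 1. There 3 of 3 erythroid markers were at least 2-fold lower, beside 4.47% of all genes beyond 2-fold. C1qc, Tyrobp, P2ry12 and Vip reached the minimum only through replicate 1, and the 3 erythroid markers only through replicate 2, so their direction is tied to it. Of erythroid markers below the minimum, Hbb-bt had 1.05 and 27.8 TPM, Alas2 1.23 and 1.00 TPM, and Slc4a1 no reads. Mature red cells are rich in Prdx2 protein, and microglia and oligodendrocytes store iron in ferritin. The part of these cells in the levels of the 10 genes was not tested.

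**Figure D3:**
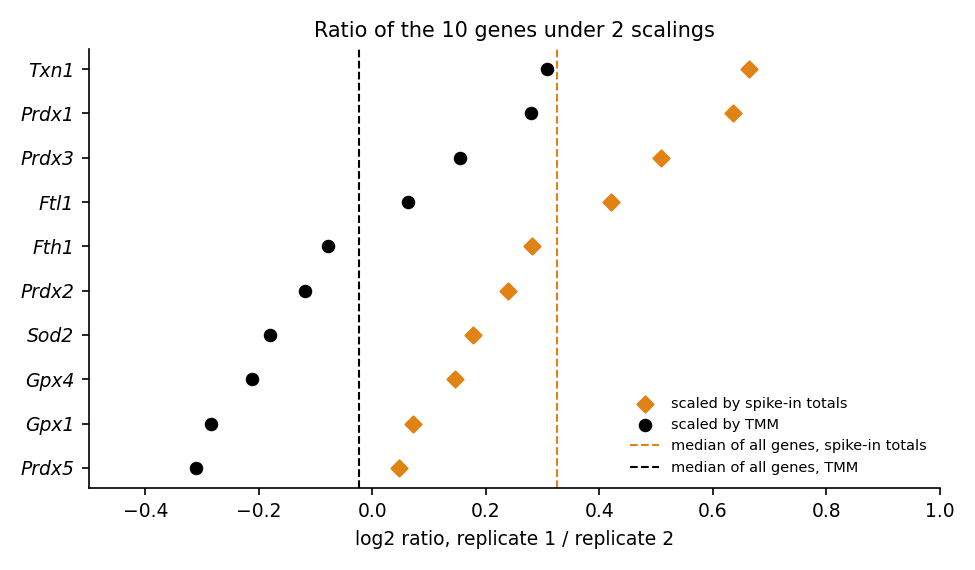
Log2 ratio of replicate 1 to replicate 2 (horizontal axis) for the 10 genes, with spike-in totals as diamonds and TMM as circles, and the median of all 9189 genes under each scaling as a dashed line. Spike-in totals put all 10 genes above 0, while 4 lie above and 6 below the matching median under either scaling. Both scalings move genes and median together, so this split could hardly differ between them.

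The transcript table of replicate 1 split the genes into those with a single form and those with several. Fth1, Txn1, Sod2 and Prdx3 have 1 listed transcript each, and Ftl1-201 held 95.8% of the Ftl1 TPM. For Prdx2, Prdx2-208 held 45.5%, Prdx2-201 held 15.7%, and 30.2% fell on transcripts annotated as retained introns, 29.6% on Prdx2-205 alone. Prdx2-205 is short, at 549 bases, and held 1504 of 10627 Prdx2 reads, a smaller part than its part of the TPM. No other of the 10 genes had more than 1.38% on retained introns. Prdx5 was divided among Prdx5-203 with 40.4%, Prdx5-201 with 31.1% and Prdx5-204 with 28.0%, of which Prdx5-203 begins within the gene, downstream of the start codon used by the others. The Prdx1 TPM lay on Prdx1-201 with 36.0%, Prdx1-202 with 27.8%, Prdx1-204 with 23.1% and Prdx1-205 with 11.8%, and the annotated coding sequences of all 4 begin at the same base. Prdx1-204 had the most reads, 3659, since TPM divides by length. The estimated SD of the read count was 12.4% for Prdx1-201 and 36.9% for Prdx1-205, and between 1.20% and 5.33% for the other named forms of Prdx1, Prdx2 and Prdx5. For Ftl1-201 it was 0.41%.

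**Figure D4:**
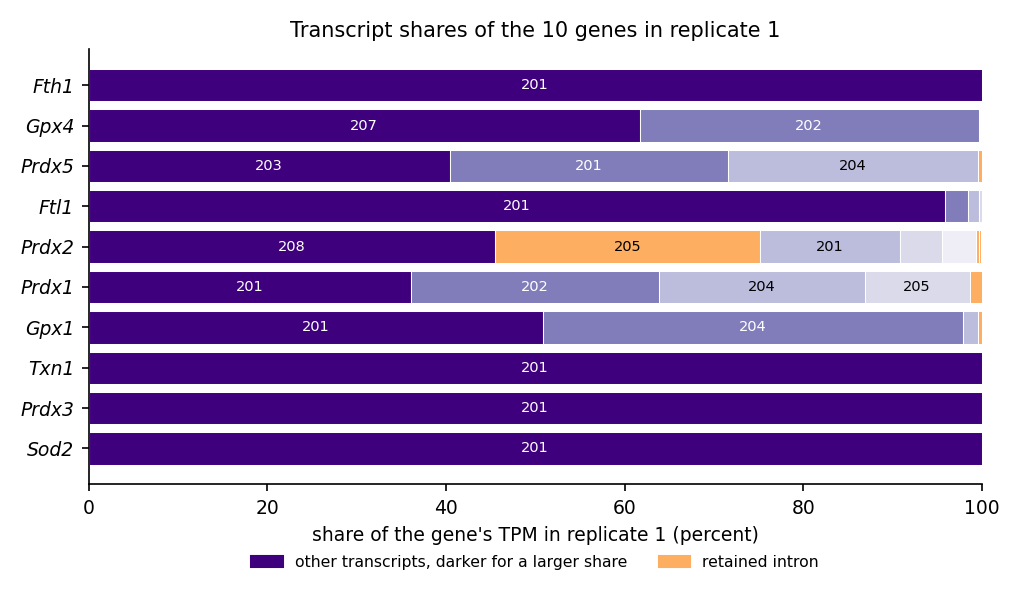
Share of each gene's TPM by transcript in replicate 1 (horizontal axis, percent), with the transcript's number on segments above 10%, retained introns in orange and other transcripts in purple. Prdx2 is the one gene with a wide orange segment, and Gpx1 is split between 50.9% and 47.0%.

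Several of the genes have near copies or neighbours with which reads can be exchanged. Words of 31 bases were taken from the listed transcripts that have a sequence in GENCODE M21, which for Ftl1 was 1 of 5. Of these words, Ftl1 shares 94.9% with transcripts of other genes, Gpx4 38.9%, Prdx5 17.1%, Prdx2 16.5%, Prdx1 15.4%, Fth1 12.9%, Txn1 6.95% and Sod2 3.88%, while Gpx1 and Prdx3 share none. The Sod2 words came from 5861 bases, against 3824 in the transcript quantified. They were shared with 2155 genes, none holding more than 1.63%, so these are not near copies. Copies with a level in the tables were low. Ftl1-ps1, with 80.6% of the Ftl1 words, had 11.6 and 11.2 TPM, Ftl2-ps had 11.1 and 1.47 TPM, Gm15590 had 0.97 and 1.57 TPM, and Gm6977, a copy of Fth1, had 6.4 and 8.6 TPM. Gpx4-ps2, which holds 38.7% of the Gpx4 words, and Gm10252 and Gm47428, which hold 34.8% and 29.9% of the Ftl1 words, have no level here and were not analysed. Adding measured copies to their parents left the ratio of Fth1 to Ftl1 at 4.99. The authors' posterior SD of the read count was largest for Ftl1 and even there was 0.212% of the count in replicate 1 and 0.186% in replicate 2. Gm22133, a miRNA gene inside Ftl1 on the same strand, is listed at 759 and 718 TPM from 152 and 161 reads, so some reads of Ftl1 may be assigned to it. Prdx5 overlaps Trmt112 on the opposite strand over 409 bases, at 95.2 and 74.6 TPM, and Prdx2 overlaps Rnaseh2a and Junb on the opposite strand over 181 and 351 bases. The sources used here do not say whether counting used strand, so reads in those stretches cannot be placed.

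Around the 10 genes, 79 others in 7 lists gave the wider setting, and 65 of them reached a TPM of 1 in both libraries. Among other enzymes of peroxide and superoxide removal, Sod1 was followed by Prdx6, a peroxiredoxin that uses glutathione, at 161 and 139 TPM and Prdx4, of the secretory pathway, at 63.3 and 61.9 TPM. The median over the list was 3.51 TPM in replicate 1 against 2.54 in replicate 2. Catalase, the peroxisomal enzyme encoded by Cat, had 19.1 and 9.04 TPM, far below the glutathione peroxidases and peroxiredoxins described above. Gpx2 and Gpx5 had no reads.

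Electron donors to these enzymes ranged widely. The thioredoxin and glutaredoxin list had the highest median of the 7, at 85.7 TPM in replicate 1 against 84.9 in replicate 2, led by Glrx2 at 182 and 173, Txn2, and Glrx3 at 155 and 154 TPM. Txnrd1, the reductase that recharges Txn1, had 11.4 and 9.13 TPM, and Srxn1, which repairs over-oxidised peroxiredoxins, had 43.7 and 45.5 TPM. In glutathione synthesis and recycling the median was 38.6 and 38.4 TPM. The transferases led, with Gstp1 at 740.5 and 705 TPM, Mgst3 at 390 and 552 TPM and Gstm5 at 438 and 349 TPM. The enzymes of synthesis were lower: Gclc, the catalytic subunit of the rate-limiting ligase, had 13.2 and 10.2 TPM. The NRF2 list, named for the factor that induces many antioxidant genes, had a median of 3.46 and 5.26 TPM. It was led by Sqstm1, an autophagy receptor, at 248 and 328 TPM, Hmox2, the constitutive heme oxygenase, at 106 and 128 TPM, and Keap1, the NRF2 repressor, at 11.6 and 11.8 TPM.

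Genes of iron traffic stood well below the ferritins. Iron uptake, export and sensing had a median of 4.95 TPM in replicate 1 against 3.08 in replicate 2, led by the iron chaperones Pcbp1 at 88.3 and 102 TPM and Pcbp2 at 57.5 and 46.4 TPM, and by Fbxl5, the iron-sensing ligase subunit that degrades iron regulatory protein, at 44.7 and 40.0 TPM. Ncoa4, the receptor that delivers ferritin to autophagy, had 26.0 and 24.3 TPM. The iron regulatory proteins Aco1 and Ireb2 had 4.95 and 3.96 TPM for the first and 10.03 and 6.62 TPM for the second. Hamp, the hormone hepcidin, had no reads. The mitochondrial iron list had a median of 12.2 and 15.9 TPM, led by Iscu, the scaffold of iron-sulfur clusters, at 310.4 and 307 TPM, Bola3 at 163 and 145 TPM and the sulfur donor Nfs1 at 24.8 and 27.0 TPM. For selenoprotein synthesis, on which Gpx1 and Gpx4 depend, the median was 15.2 and 12.8 TPM, and the leading genes were Pstk at 65.0 and 64.0, the selenium carrier Sepp1 at 46.9 and 42.5, and Trnau1ap at 28.0 and 22.1 TPM.

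Of the 79 genes, 54 reached a mean CPM of 10, and 3 of these, or 5.56%, differed by at least 2-fold between the libraries, beside 4.47% of all genes. All 3 were higher in replicate 1, while over all 9189 genes 241 were higher and 170 lower there. They were Cat, at 2.12 times replicate 2 (95% exact interval 1.90 to 2.36), Steap2, a metalloreductase, at 3.62 and 1.29 TPM, and Slc7a11, the cystine carrier that feeds glutathione synthesis, at 3.22 and 0.35 TPM. Steap2 and Slc7a11 reached the minimum only through replicate 1, at 21.8 and 20.3 CPM there against 7.18 and 1.30 in replicate 2. Their direction is therefore tied to the minimum, and nothing is read from it. With a minimum mean CPM of 1 in place of 10, 8 of 71 genes (11.3%) differed by at least 2-fold, beside 10.4% of 14332 genes. Of these 6 were higher in replicate 1 and 2 were lower there, namely Nqo1, a quinone reductase, at 1.79 and 6.36 TPM, and Heph, a ferroxidase, at 0.14 and 0.51 TPM. With no minimum, 9 of 79 genes (11.4%) did so, beside 4.21% of all 43346 gene rows, of which 14332 reached a mean CPM of 1. The median log2 ratio of the 54 genes was 0.05, beside -0.02 over all 9189.

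**Figure D5:**
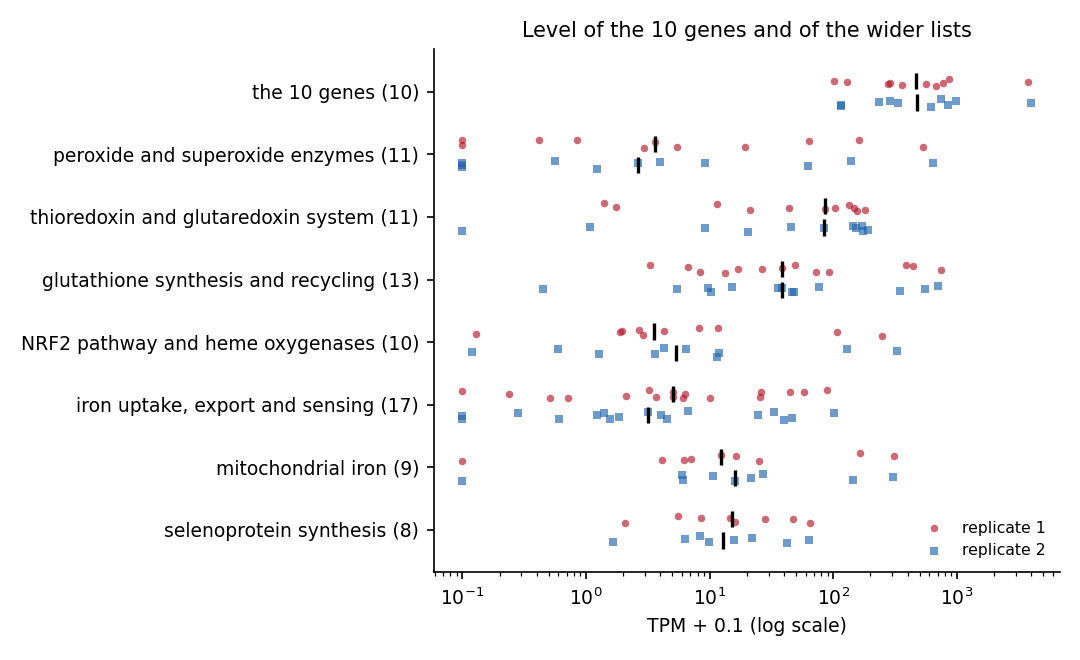
TPM + 0.1 (horizontal log axis) of the 10 genes and of the 79 genes in 7 lists, with replicate 1 as circles above and replicate 2 as squares below, and each list's median as a black bar. The number of genes stands beside each list's name. The 10 genes all lie above 100 TPM, and the medians of the lists lie between 2.54 and 85.7 TPM.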

How the data were processed

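The authors deposited, for each of the 2 libraries, a gene table with the expected count, which is an estimated and unnormalized number of reads, and its posterior SD. The same deposited tables hold TPM and FPKM, both corrected for effective length, and a transcript table of replicate 1 adds a percent, the part of a gene's TPM that falls on each transcript. Quantification used mm10 with GENCODE M4, per the deposited text files. No aligner or quantifier is named, and strand handling is not given in the sources used here. Symbols, coordinates and sequences came from GENCODE M21 on GRCm38, by identifier without version, and 42462 of 43346 identifiers matched. Other annotation releases can differ in transcript length and UTRs.

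Spike-ins and 26248 entries with numeric identifiers were left out of library sizes. Expected counts were rounded to integers before TMM in edgeR 4.0.16 and for DESeq2 1.42.0 size factors (R 4.3.3). Ratios are log2((CPM + 1)/(CPM + 1)), replicate 1 over replicate 2, called at 2-fold and a mean CPM of at least 10. The ratio script was tested on simulated data. With 1 library on each side, no test was run. Exact intervals of folds are conditional binomial intervals from the deposited counts. The libraries differed beyond counting noise, with a chi-square of 52.0 per degree of freedom over 17816 genes, so they are not 1 library deposited again. This does not show that they came from separate animals or samples. Other values came from Python 3.11.15, pandas 2.3.3, numpy 2.4.6 and scipy 1.17.1.

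The members and lists were chosen with earlier results of these data known. Named genes are the members, the top 3 genes per list by mean TPM, the list genes without a read or beyond 2-fold, and the copies sharing at least 10% of a member's words at a mean TPM of at least 1. Other genes named (Slc40a1, Tfrc, Ncoa4, Aco1, Ireb2, Txnrd1, Srxn1, Gclc, Nqo1, Heph, Gm22133, Gm10252, Gm47428, Gpx4-ps2, Junb, Rnaseh2a, the markers Slc17a7 and Slc4a1, and those under other observations) were added after their values were seen.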

Additional observations from a re-analysis of the deposited data

How the results depend on the processing

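Of the 26 repeats of the counts and levels that answer a comparison, 19 kept their value within the limits used. Some of these could not have moved, as stated below. None of the 10 genes differed by 2-fold with DESeq2 size factors, deposited TPM, spike-in totals or a pseudocount of 0.1. Nor did any with a minimum mean CPM of 1, of none, or of 100, the last chosen after the data were seen. The minimums kept the same 10 genes, each at a mean CPM of 143.6 or more, so they could not change this count. At such levels the other pseudocount could hardly change it either. The count of 3 among the 79 wider genes kept under the other scalings and the other pseudocount, but was 8 at a minimum mean CPM of 1, 9 with no minimum and 0 of 16 at 100, where edgeR's TMM scaling was also used. The median of the 10 genes, 470.4 TPM, became 518 when TPM was rescaled to annotated genes and 708 with FPKM rescaled over nuclear coding genes. The ratio of Fth1 to Ftl1, 5.11, was 4.73 from counts per union exon length, and that of Gpx4 to Gpx1, 3.01, was 2.34. Leaving out each library in turn only restates the value of the other, at 463 to 478 TPM, 4.86 to 5.35 and 2.94 to 3.07. Of 30 log2 ratios of single genes recomputed, 11 moved outside their counting interval, 10 of them with spike-in totals.

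No paired analysis was possible because there is 1 group. With 2 libraries from 1 donor label, neither animal nor preparation can be separated, and counts from pools of 50 cells carry sampling error that the intervals do not hold.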

Other observations

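Gpx1 and Gpx4 are 2 of 24 genes with an annotated selenocysteine codon, and 7 more stand in the wider lists. Outside those lists, and named after their values were seen, the most abundant selenoprotein mRNAs were Selenow, a small thioredoxin-like protein, at 1414 TPM in replicate 1 against 1639 in replicate 2, Selenok, of the endoplasmic reticulum, at 599.8 and 580.0 TPM, and Selenof, of the same compartment, at 418 and 384 TPM. Selenow thus exceeded Gpx4 in both libraries, while Selenok and Selenof fell between Gpx4 and Gpx1. The deiodinase gene Dio3 had 0 TPM in both libraries. No test was run on this ordering.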
